A study of Homo sapiens with 12 samples.

Results

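The translation initiation and elongation factors of the human cell lines 786-O and 5637 were followed after silencing of CBX7, a Polycomb protein of the chromobox family that reads methylated histone H3. The members are the protein-coding genes of the 786-O table whose symbols begin with EIF1, EIF2, EIF3, EIF4, EIF5, EIF6, EEF1 or EEF2, without the eIF2 kinases (symbols beginning with EIF2AK). They number 67 of the 58735 genes in that table, of which 19951 are protein coding. The same symbols were found for 63 of them among the 29890 genes of the 5637 table. The rule used names and no measured value, but it was set with earlier results of these data known. It takes in the translation factors themselves, their binding repressors, the kinase of eEF2, methyltransferases that modify eEF1A and eEF2, and a pair of readthrough genes.

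In cap-dependent translation the eIF4F complex binds the cap of a messenger RNA, eIF3 and the eIF2 ternary complex bring the small ribosomal subunit with the initiator tRNA, and eIF1, eIF1A and eIF5 act in the choice of the start codon. eEF1A then delivers aminoacyl-tRNAs to the ribosome, the eEF1B complex exchanges its nucleotide, and eEF2 moves the ribosome along the message. The pathway is set by mTOR, which phosphorylates the eIF4E-binding repressors, and by the eIF2 kinases, which block the exchange factor eIF2B. Messages of many translation factors and ribosomal proteins begin with a C followed by a run of pyrimidines, the terminal oligopyrimidine (TOP) tract, and their translation is known to follow mTOR activity.

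The groups were 3 shCBX7 and 3 sh control libraries of 786-O, a line from a clear cell renal carcinoma, and 3 shCBX7 and 3 sh control libraries of 5637, a line from a urinary bladder carcinoma. All were grown in RPMI-1640 with 10% fetal bovine serum, and the labels name no further agent, clone number or hairpin sequence. The table columns call the arms si where the sample titles write sh, and 2 of the 3 control titles of 5637 carry another number although their cell line label is 5637. The labels do not state whether the 3 libraries per arm are separate cultures. P-values below therefore speak of the variation among these libraries only, and that variation may be technical. In such bulk samples, fewer cells of a type and less RNA per cell cannot be told apart.

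The silenced gene was read first. CBX7 had 1.01, 0.892 and 1.07 FPKM in shCBX7 libraries, against 1.63, 1.75 and 1.49 FPKM in sh control libraries of 786-O, and the arms did not overlap (a log2 change of -0.40 ± 0.08, adjusted p = 0.00364; limma). In 5637 CBX7 had 1.86, 1.80 and 1.97 FPKM in shCBX7 libraries, against 2.19, 2.17 and 2.42 FPKM in sh control libraries, again without overlap but with a smaller difference (a log2 change of -0.18 ± 0.05, adjusted p = 0.0188; limma). The 5637 call was lost without shCBX7 library 2 (adjusted p = 0.0608) or without sh control library 3 (adjusted p = 0.0585). The mean CBX7 level in shCBX7 cells was 61.0% of control in 786-O and 83.3% in 5637. Reads recovered from the FPKM steps came to between 16384151 and 18868874 per 786-O library and between 17818919 and 29533409 per 5637 library. Over all tested genes, libraries of one arm correlated at 0.991 to 0.993 in 786-O and those of different arms at 0.964 to 0.965. In 5637 the same ranges were 0.995 to 0.996 and 0.989 to 0.991. The labelled cell types matched their markers in part. PAX8, a renal transcription factor, averaged 30.3 FPKM in shCBX7 and 37.8 FPKM in sh control cells of 786-O and at most 0.16 FPKM in 5637. KRT5, a basal urothelial keratin, was at 0 in 786-O and averaged 265 FPKM in shCBX7 and 189 FPKM in sh control cells of 5637. The uroplakins UPK1A, UPK2 and UPK3A, which mark luminal urothelium, averaged no more than 0.32 FPKM in either line, while the luminal regulators GATA3 (10.3 against 11.6 FPKM) and PPARG (46.0 against 44.5 FPKM) were present in 5637 (shCBX7 against sh control) and PPARG in 786-O too (11.8 against 6.56 FPKM). CA9, a marker of clear cell carcinoma, was lower in 786-O (0.624 against 0.674 FPKM) than in 5637 (1.96 against 2.70 FPKM). The leukocyte gene PTPRC averaged no more than 0.01 FPKM. LAPTM5, also a leukocyte marker, was listed higher, at 8.07 against 17.5 FPKM in 786-O and 37.5 against 43.5 FPKM in 5637 (shCBX7 against sh control), and its part in the results was not tested.

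Translation factor messages fell more often than they rose in 786-O and moved in both directions in 5637. Of the 62 members tested in 786-O (mean of at least 0.5 FPKM over the 6 libraries), 30 were lower and 9 were higher in shCBX7 cells at a limma adjusted p under 0.05, and 23 did not pass, so that 62.9% were called where 51.0% of all tested genes were. That is 48.4% lower and 14.5% higher, where 26.2% of the 13220 genes tested in that line were called lower and 24.7% higher. The median log2 change was -0.14 over the members and -0.01 over all tested genes. In 5637, 17 of 59 tested members were lower (28.8%) and 18 higher (30.5%), with 24 not called, where 44.5% of all 12689 tested genes were called, 20.2% lower and 24.4% higher. The member median there was 0.01, as was that of all genes. Arms that did not overlap were about as common as calls. In 786-O, 31 of the 62 tested members had every shCBX7 library below every control library, and 9 of the 62 had it above. Of all tested genes, 31.0% and 29.2% did so. In 5637 the numbers were 19 of 59 below and 20 of 59 above, where 25.7% and 30.7% of all tested genes did so. Most changes were small. In 786-O, 9 called members (14.5%) had a mean FPKM lower by 1.5-fold or more. They were EEF1B2, EEF2K, EIF2A, EIF2B3, EIF3L, EIF4A2, EIF4E3, EIF4G1 and EIF5A2. Of all tested genes, 6.61% were called and lower by 1.5-fold or more, but on the log2(FPKM + 1) scale. On that scale EEF2K, EIF2A, EIF3L and EIF4E3 fell short of 1.5-fold, so these shares are not comparable. Of the 62 tested members, only EEF1B2, EIF2B3, EIF4A2, EIF4G1 and EIF5A2 were called and lower by 1.5-fold or more on that scale. No called member was higher by that much on either measure, where 7.16% of all tested genes were on the log2(FPKM + 1) scale. In 5637 no member passed 1.5-fold in either direction on either measure. On the log2(FPKM + 1) scale 0.418% of all genes tested there were lower and 0.378% higher by that much. All changes are shCBX7 minus sh control on the log2(FPKM + 1) scale, which understates changes of low genes, and errors on them are limma standard errors. As a share of the summed FPKM of a library, the members took 1.07%, 1.06% and 1.04% in shCBX7 libraries of 786-O, against 1.27%, 1.28% and 1.25% in sh control libraries, without overlap. In 5637 the share was 1.84%, 1.84% and 1.81% in shCBX7 libraries, against 1.90%, 1.87% and 1.86% in sh control libraries. Without EEF1A1, the most abundant member, the 786-O share was 0.859%, 0.854% and 0.853% in shCBX7 libraries, against 0.981%, 0.978% and 0.960% in sh control libraries, so the arms remained apart. In 5637 the share without EEF1A1 was 1.32%, 1.32% and 1.31% in shCBX7 libraries, against 1.34%, 1.33% and 1.32% in sh control libraries, and here the arms overlapped.

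**Figure D1:**
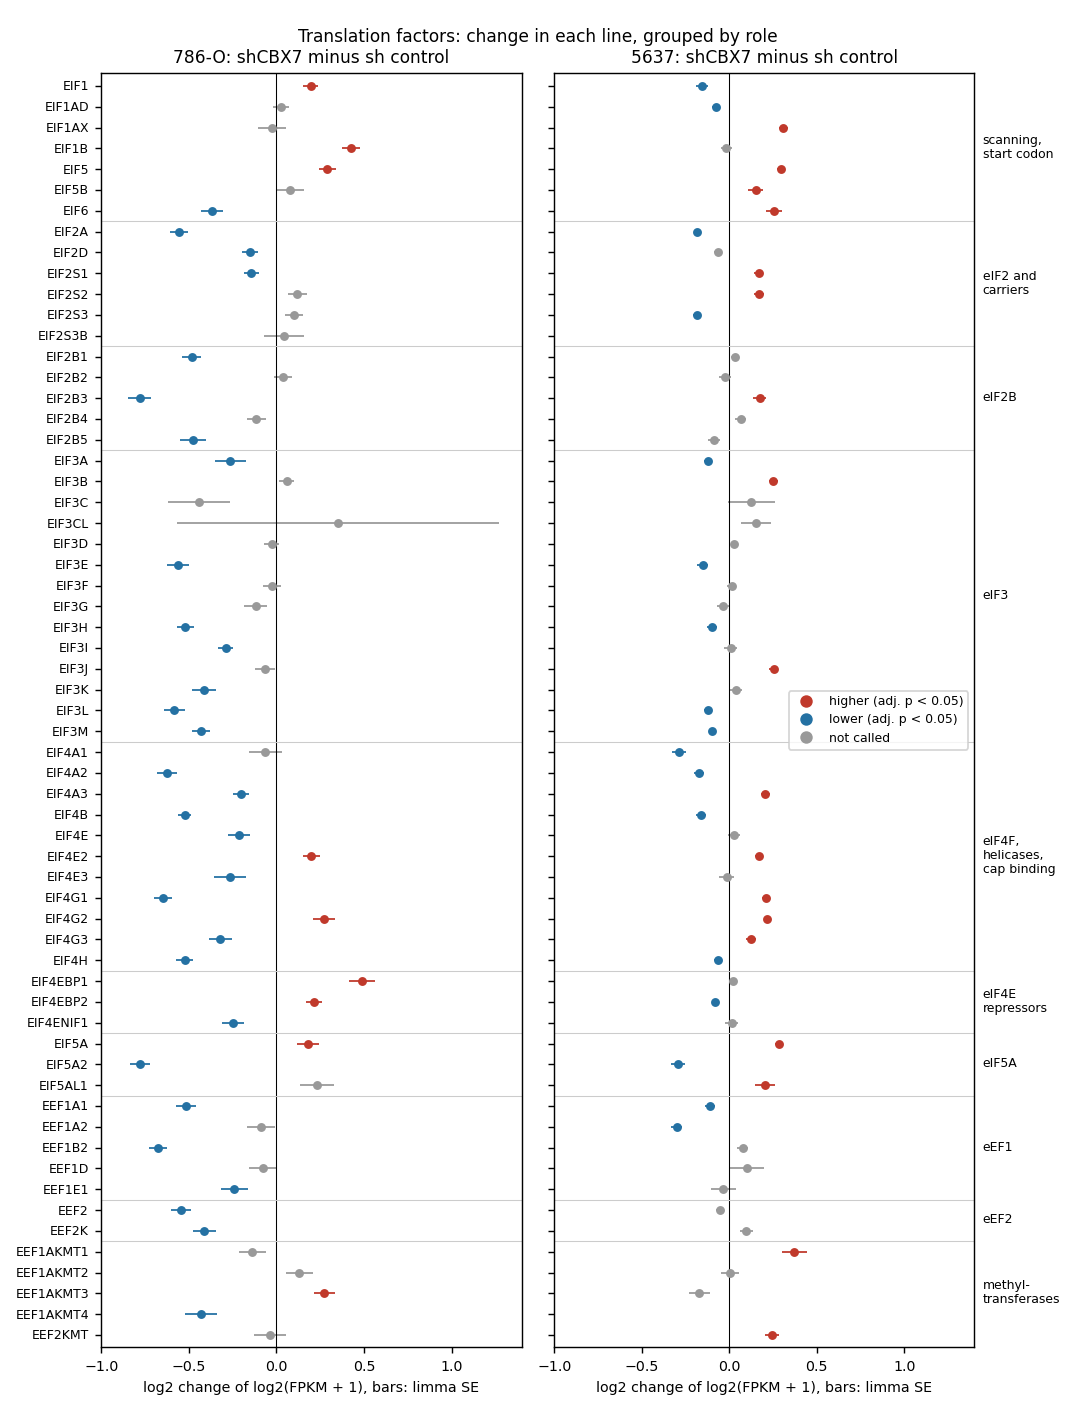
Log2 change (shCBX7 minus sh control, log2(FPKM + 1)) of each tested member in 786-O (left) and 5637 (right), grouped by role, with limma standard errors and color for the call at adjusted p under 0.05. Of the members tested in 786-O, 30 lie on the lower side with a call and 9 on the higher side, and in 5637 17 and 18. EIF1AY is left out.

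**Figure D2:**
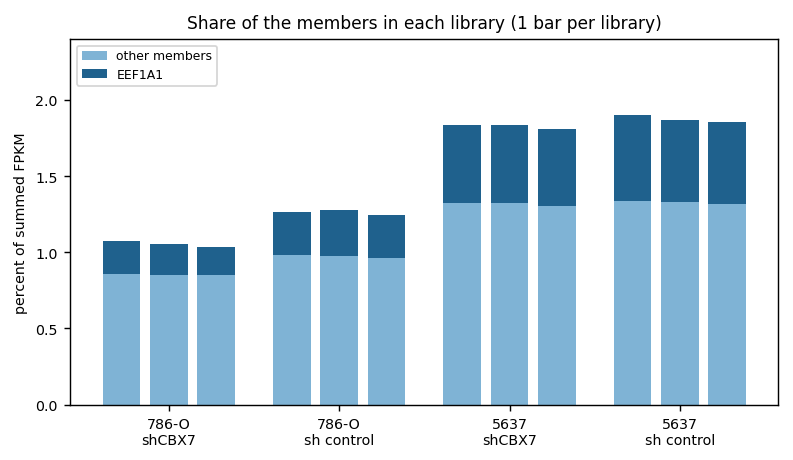
Share of the members in the summed FPKM of each library (percent, 1 bar per library), split into EEF1A1 (dark) and the other members (light). The 786-O shCBX7 bars end at 1.04% to 1.07% and the sh control bars at 1.25% to 1.28%, while in 5637 all bars end between 1.81% and 1.90%.

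The elongation factors EEF1A1, EEF2 and EEF1B2 were lower in 786-O. EEF1A1 encodes eEF1A1, which carries aminoacyl-tRNA to the ribosome, and lies at chr6:73515750-73523797 on the minus strand (GRCh38). In 786-O it had 685, 645 and 595 FPKM in shCBX7 libraries, against 922, 924 and 906 FPKM in sh control libraries (a log2 change of -0.52 ± 0.06, adjusted p = 0.000264). Every shCBX7 library was below every control library. EEF2, the translocase, had 411, 380.3 and 395 FPKM in shCBX7 libraries, against 619, 551 and 564 FPKM in sh control libraries (a log2 change of -0.54 ± 0.06, adjusted p = 0.000204), also without overlap. EEF1B2, the exchange factor subunit eEF1B alpha (chr2:206159585-206162928, plus strand), had 121, 118 and 112 FPKM in shCBX7 libraries, against 196, 182 and 184 FPKM in sh control libraries (a log2 change of -0.68 ± 0.05, adjusted p = 3.50e-05), the largest fall among the eEF1 genes called. EEF1E1, a scaffold protein of the multi-tRNA synthetase complex, was lower as well (-0.24, adjusted p = 0.0324), but the call was lost without any 1 of 4 libraries (shCBX7 1 and 3, sh control 2 and 3; adjusted p = 0.0508 to 0.107) and without the filter on low values (adjusted p = 0.0807). EEF2K, the kinase that inactivates eEF2, averaged 1.52 ± 0.133 FPKM in shCBX7 cells and 2.35 ± 0.0504 FPKM in sh control cells (-0.41, adjusted p = 0.00167). EEF1A2, the eEF1A paralog best known from muscle and neurons, averaged 25.4 ± 2.20 FPKM in shCBX7 cells and 27.0 ± 2.24 FPKM in sh control cells with overlapping arms (-0.09, adjusted p = 0.4), and EEF1D, the eEF1B delta subunit, did not pass either (-0.08, adjusted p = 0.433). About 34.0% of the exon bases of EEF1D are shared with genes of the opposite strand. EEF1G, the eEF1B gamma subunit, was listed at 0 in all 12 libraries, and 99.9% of its exon bases are shared with AP002990.1 on the same strand, so it gives no value here.

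In 5637 EEF1A1 and EEF1A2 were lower, and EEF2 and EEF1B2 were not called. EEF1A1 had 1157, 1148 and 1126 FPKM in shCBX7 libraries, against 1268, 1226 and 1209 FPKM in sh control libraries (a log2 change of -0.11 ± 0.03, adjusted p = 0.0172), and this call was lost without shCBX7 library 3 (adjusted p = 0.0578) or sh control library 1 (adjusted p = 0.0513). It was also lost without the filter on low values (adjusted p = 0.238) and after quantile normalization (0.131), and quantile normalization left a log2 change of -0.04. EEF1A2 had 16.3, 15.4 and 15.4 FPKM in shCBX7 libraries, against 19.2, 20.3 and 19.3 FPKM in sh control libraries (a log2 change of -0.30 ± 0.03, adjusted p = 0.000484). For EEF1A2 the arms lay clearly apart, at 80.2% of the control level. EEF2 averaged 793 ± 8.42 FPKM in shCBX7 cells and 823 ± 13.4 FPKM in sh control cells (-0.05, adjusted p = 0.109). Its arms did not overlap, and it was called lower after median centring and in the test on recovered reads. In 12 of the 14 alternatives EEF2 was not called. Its log2 change ran from -0.07 to 0.04 over them all, so its direction in 5637 was not stable. EEF1B2 averaged 89.1 ± 2.66 FPKM in shCBX7 cells and 84.4 ± 2.43 FPKM in sh control cells, not called (0.08, adjusted p = 0.0766), and EEF2K averaged 7.02 ± 0.197 FPKM in shCBX7 cells and 6.50 ± 0.313 FPKM in sh control cells, not called (0.10, adjusted p = 0.0716). Both were called higher under some other settings, EEF1B2 under 4 and EEF2K under 2. EEF1E1 and EEF1D did not pass, and EEF1D was listed at no more than 1.16 FPKM in any library of this line. Processed copies of the elongation factors, which share sequence with the parent genes and could take or give reads, were listed alongside them in 786-O. EEF1A1P5 averaged 94.5 ± 3.14 FPKM in shCBX7 cells and 137 ± 6.01 FPKM in sh control cells and EEF1B2P3 14.8 ± 0.917 FPKM in shCBX7 cells and 23.1 ± 1.07 FPKM in sh control cells, so both differed in the direction of their parents. In 5637 EEF1B2P3 averaged 15.6 ± 0.776 FPKM in shCBX7 cells and 13.2 ± 0.298 FPKM in sh control cells. How reads were divided between parents and copies is not given in the sources used here.

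**Figure D3:**
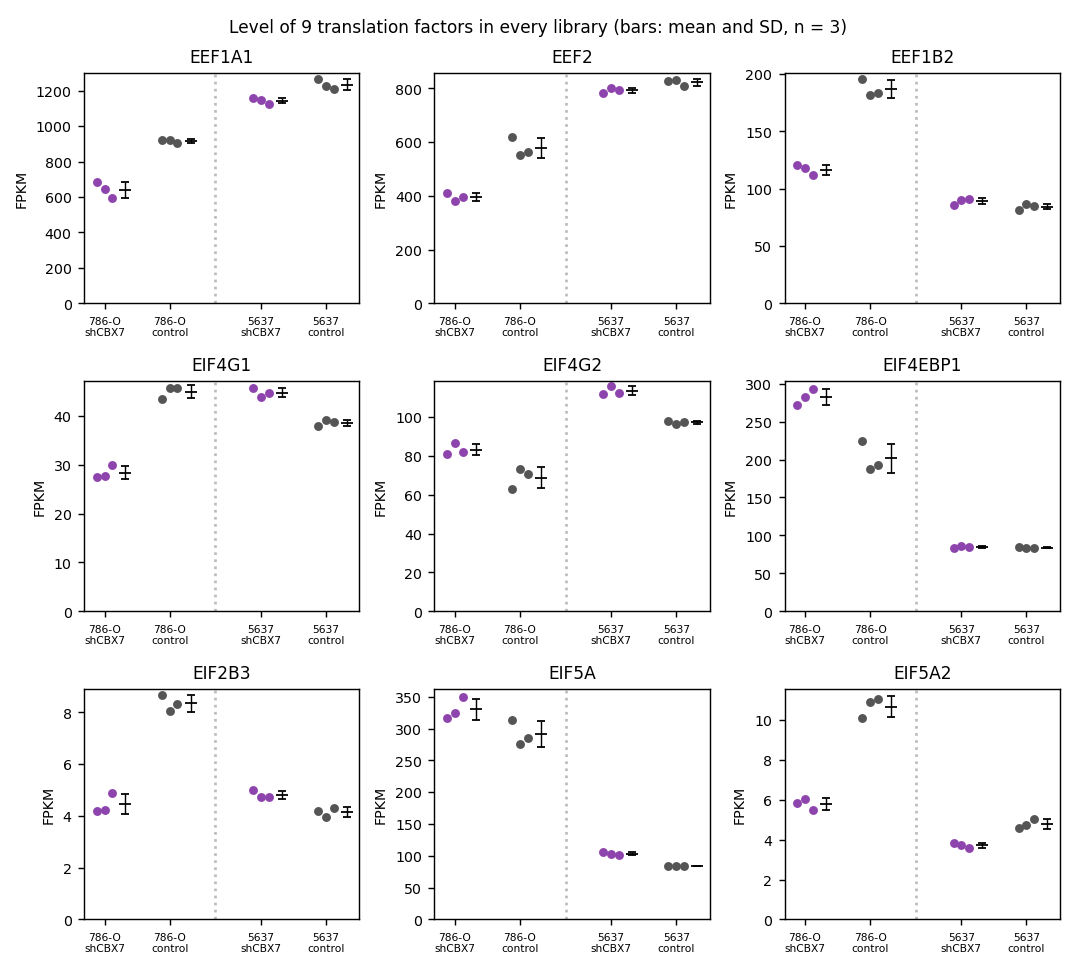
FPKM of 9 members in each library, shCBX7 (purple) left of sh control (grey) in each line, with mean and SD (n = 3) beside the points. EEF1A1, EEF2, EEF1B2, EIF4G1, EIF2B3 and EIF5A2 are lower and EIF4G2, EIF4EBP1 and EIF5A higher in 786-O shCBX7 cells, while EIF4G1 and EIF2B3 are higher in 5637 shCBX7 cells.

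Since several of these genes are classical TOP messages, the first transcribed bases of the members were read. RefSeq promoter windows (GRCh38.p14) were at hand for 54 of the 67 members. Each line gives 15 bases before and 15 bases from the annotated start on, 5′ to 3′ on the gene's strand, in capitals where a C at the first base is followed by at least 4 bases that are each C or T. Where a gene has more than 1 annotated start, it counts as having a run if any start has one, and that start is shown. The first set holds members with such a run that were called lower in 786-O.
EEF1A1 (chr6:73521018-73521047, minus strand): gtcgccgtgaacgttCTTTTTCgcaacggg
EEF1B2 (chr2:206159880-206159909, plus strand): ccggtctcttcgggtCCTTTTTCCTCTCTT
EEF2 (chr19:3985449-3985478, minus strand): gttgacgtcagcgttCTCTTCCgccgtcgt
EIF4B (chr12:53006441-53006470, plus strand): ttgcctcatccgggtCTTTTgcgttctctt
EIF4A2 (chr3:186783562-186783591, plus strand): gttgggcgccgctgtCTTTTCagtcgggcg
EIF3M (chr11:32583816-32583845, plus strand): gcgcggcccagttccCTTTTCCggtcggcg
EIF2A (chr3:150546772-150546801, plus strand): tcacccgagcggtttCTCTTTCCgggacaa
The second set holds members with such a run that were not called in either line.
EIF3D (chr22:36529152-36529181, minus strand): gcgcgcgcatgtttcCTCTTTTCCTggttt
EIF3F (chr11:7987322-7987351, plus strand): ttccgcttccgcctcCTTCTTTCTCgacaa
The third set shows the members with the largest falls in 786-O, which carry no such run at the annotated start.
EIF2B3 (chr1:44986581-44986610, minus strand): attgggctgtcagtcagaggcggcgtggag
EIF5A2 (chr3:170908623-170908652, minus strand): cccgccccgtctcttggaactgccgcggcc
The annotated start can differ from the start used in these cells, so a match describes the letters and not the message.

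A run of this kind stood at the start of 13 of the 54 members (24.1%), against 5.14% of the 27305 genes in the promoter table and 7.56% of the 9204 genes of that table tested in 786-O. In 786-O, 9 of the 13 members were lower, none was higher, and their median log2 change was -0.43. Of all 696 tested genes with a run, 37.9% were lower and 20.0% higher, with a median of -0.10. Of the 36 tested members without a run, 17 were lower (47.2%) and 7 higher (19.4%), with a median of -0.13, against 27.7% lower and 26.0% higher and a median of -0.01 among all 8508 tested genes without one. The 9 lower ones were EEF1A1, EEF1B2, EEF2, EIF2A, EIF2D, EIF3K, EIF3M, EIF4A2 and EIF4B, and EIF2S3, EIF2S3B, EIF3D and EIF3F were not called. In 5637, 6 of 12 members with a run were lower and none was higher (median -0.08), against 27.2% lower and 15.2% higher among the 696 tested genes with a run. Of the 34 members without a run, 6 were lower (17.6%) and 15 higher (44.1%) in 5637, with a median of 0.08, against 19.4% lower and 26.8% higher and a median of 0.02 among all 9056 tested genes without one. Among 9 members known as TOP messages from the literature (EEF1A1, EEF1B2, EEF1D, EEF1G, EEF2, EIF3E, EIF3F, EIF3H and EIF4B), 8 were tested. Of these, 6 were lower and none higher in 786-O (median -0.52), where 26.2% of all tested genes were lower and 24.7% higher. In 5637, 4 were lower and none higher (median -0.08), where 20.2% of all tested genes were lower and 24.4% higher. EEF1A1, EEF1B2, EEF2, EIF3F and EIF4B are also among the members with a run counted above, so the counts are not independent. The list of known TOP messages was also drawn up with earlier results of these data known.

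**Figure D4:**
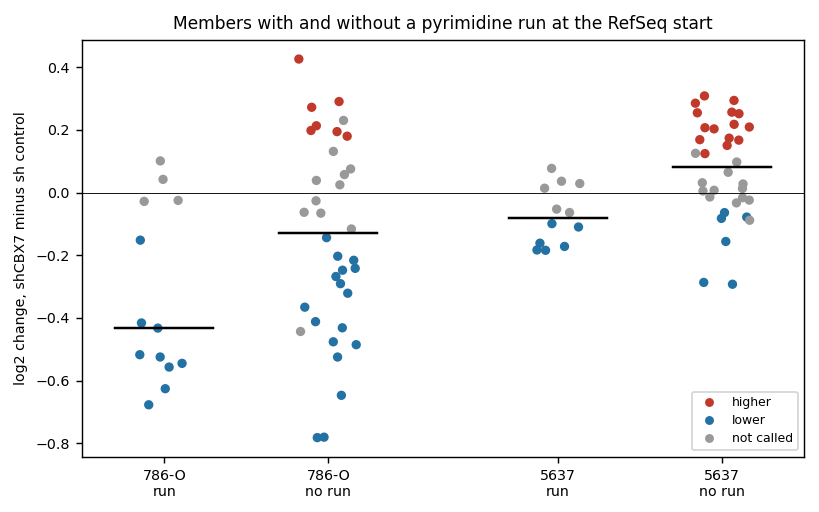
Log2 change (shCBX7 minus sh control) of members with and without a pyrimidine run at the RefSeq start, 1 point per gene, bars at the median. In 786-O the medians are -0.43 with and -0.13 without a run, and in 5637 -0.08 and 0.08. EIF1AY is counted in the 786-O median without a run but not drawn.

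In the eIF4F complex and its helper proteins, EIF4G1 and EIF4G3 moved in opposite directions in the lines. EIF4G1, the scaffold that joins the cap-binding protein to eIF3 (chr3:184314495-184335358, plus strand), had 27.5, 27.7 and 29.9 FPKM in shCBX7 libraries, against 43.4, 45.6 and 45.7 FPKM in sh control libraries of 786-O (a log2 change of -0.65 ± 0.05, adjusted p = 4.55e-05). In 5637 it had 45.6, 43.8 and 44.6 FPKM in shCBX7 libraries, against 37.9, 39.0 and 38.7 FPKM in sh control libraries (a log2 change of 0.21 ± 0.02, adjusted p = 0.000514). The arms did not overlap in either line, and EIF4G1 was lower in 786-O shCBX7 cells and higher in 5637 shCBX7 cells. EIF4G3, a paralog with the same role, followed that pattern with a log2 change of -0.32, adjusted p = 0.00471 in 786-O and 0.12, adjusted p = 0.00799 in 5637. EIF4G2, also called DAP5, which lacks the site for eIF4E, was higher in both lines. It had 80.9, 86.4 and 82.1 FPKM in shCBX7 libraries, against 62.7, 73.0 and 70.6 FPKM in sh control libraries of 786-O (a log2 change of 0.27 ± 0.06, adjusted p = 0.00949). In 5637 EIF4G2 had 112, 116 and 112 FPKM in shCBX7 libraries, against 98.1, 96.5 and 97.4 FPKM in sh control libraries (a log2 change of 0.22 ± 0.02, adjusted p = 0.000357). The 786-O call of EIF4G2 was lost after quantile normalization (adjusted p = 0.0896). EIF4E, the cap-binding protein itself, averaged 3.84 ± 0.0528 FPKM in shCBX7 cells and 4.63 ± 0.378 FPKM in sh control cells of 786-O (-0.22, adjusted p = 0.0239), a call lost without any 1 of 4 libraries (shCBX7 1, 2 and 3, sh control 2; adjusted p = 0.0555 to 0.0679) and without the filter on low values (adjusted p = 0.0538). In 5637 EIF4E averaged 4.04 ± 0.16 FPKM in shCBX7 cells and 3.95 ± 0.102 FPKM in sh control cells and was not called (0.03, adjusted p = 0.563).

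Of the 11 members of this group tested in each line, 8 were lower and 2 higher in 786-O, and 4 were lower and 5 higher in 5637, where 26.2% of all tested genes were lower and 24.7% higher in 786-O and 20.2% lower and 24.4% higher in 5637. EIF4A2, a DEAD-box helicase that unwinds leader sequences, had 25.7, 26.1 and 23.6 FPKM in shCBX7 libraries, against 38.2, 41.1 and 38.8 FPKM in sh control libraries of 786-O (a log2 change of -0.63 ± 0.05, adjusted p = 8.06e-05). EIF4B and EIF4H, which stimulate that helicase, averaged 23.9 against 34.9 FPKM (-0.52, adjusted p = 3.76e-05) and 135 against 195 FPKM (-0.52, adjusted p = 8.95e-05) in shCBX7 against sh control cells. None of these 3 genes had overlapping arms in 786-O. In 5637 EIF4A2 (-0.17, adjusted p = 0.00342) and EIF4B (-0.16, adjusted p = 0.00496) were lower too. EIF4H was at the threshold there (-0.06, adjusted p = 0.0498), and its call was lost without any 1 library except shCBX7 library 1 (adjusted p = 0.099 to 0.145). It was also lost without the filter on low values (adjusted p = 0.0991), after rescaling to TPM (0.0768), after quantile normalization (0.13), without the mean-variance trend (0.0882) and with the replicate number as a block (0.0941). EIF4A3, the helicase of the exon junction complex, was lower in 786-O (21.1 against 24.5 FPKM; -0.20, adjusted p = 0.00831) and higher in 5637 (34.7 against 29.9 FPKM; 0.21, adjusted p = 0.000617). EIF4E2, a cap-binding homolog that acts in repression, was higher in 786-O (0.20, adjusted p = 0.0116) and in 5637 (0.17, adjusted p = 0.00141). EIF4E3, another homolog, was listed under 1 FPKM in 786-O, where its call (-0.27, adjusted p = 0.0415) was lost without any 1 library except shCBX7 library 2 (adjusted p = 0.0591 to 0.122) and with a pseudocount of 0.1 (adjusted p = 0.0532), without the filter on low values (0.0736) and with the replicate number as a block (0.0546). EIF4A1, known as an abundant helicase, was listed at no more than 0.729 FPKM in 786-O and 1.63 FPKM in 5637. Of its exon bases, 48.6% are shared with other genes of the same strand, so its values are uncertain. In 5637 they were 1.12, 1.12 and 1.16 FPKM in shCBX7 libraries, against 1.58, 1.60 and 1.63 FPKM in sh control libraries (-0.29, adjusted p = 0.00138), and in 786-O the arms overlapped (-0.06, adjusted p = 0.601).

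The group of eIF4E-binding repressors had 3 tested genes. In 786-O EIF4EBP1 and EIF4EBP2 were higher and EIF4ENIF1 was lower, where 24.7% of all tested genes were higher and 26.2% lower. EIF4EBP1, which keeps eIF4E from eIF4G until mTOR phosphorylates it (chr8:38030341-38060365, plus strand), had 271, 283 and 293 FPKM in shCBX7 libraries, against 224, 188 and 193 FPKM in sh control libraries of 786-O (a log2 change of 0.49 ± 0.07, adjusted p = 0.00107). Its arms did not overlap, and its log2 change was the highest of any member called in this line. In 5637 EIF4EBP1 had 83.7, 86.5 and 84.9 FPKM in shCBX7 libraries, against 84.3, 83.8 and 83.5 FPKM in sh control libraries, with overlapping arms (0.02, adjusted p = 0.432). EIF4EBP2, a second repressor of the family, averaged 14.0 ± 0.303 FPKM in shCBX7 cells and 11.9 ± 0.307 FPKM in sh control cells of 786-O (0.21, adjusted p = 0.00612). In 5637 EIF4EBP2 averaged 25.1 ± 0.305 FPKM in shCBX7 cells and 26.6 ± 0.199 FPKM in sh control cells and was lower (-0.08, adjusted p = 0.0115). EIF4ENIF1, the transporter that takes eIF4E into the nucleus, was lower in 786-O (-0.25, adjusted p = 0.0134) and not called in 5637 (0.01, adjusted p = 0.787). EIF4EBP3 was below the level tested in both lines, and 73.4% of its exon bases are shared with the readthrough gene ANKHD1-EIF4EBP3.

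The guanine nucleotide exchange factor eIF2B, which recharges eIF2, had lower messages of its alpha, gamma and epsilon subunits in 786-O. EIF2B3, the gamma subunit (chr1:44850522-44986722, minus strand), had 4.20, 4.24 and 4.89 FPKM in shCBX7 libraries, against 8.68, 8.04 and 8.31 FPKM in sh control libraries of 786-O (a log2 change of -0.78 ± 0.07, adjusted p = 6.39e-05). Its shCBX7 level was 0.532 of the control level, the lowest fold of any member tested in either line. In 5637 EIF2B3 had 4.98, 4.73 and 4.73 FPKM in shCBX7 libraries, against 4.18, 3.96 and 4.32 FPKM in sh control libraries (a log2 change of 0.17 ± 0.04, adjusted p = 0.00834), so that here the shCBX7 libraries were the higher ones. EIF2B1, the alpha subunit, averaged 8.23 ± 0.284 FPKM in shCBX7 cells and 11.9 ± 0.571 FPKM in sh control cells of 786-O (-0.49, adjusted p = 0.000257). EIF2B5, the catalytic epsilon subunit, averaged 6.46 ± 0.269 FPKM in shCBX7 cells and 9.40 ± 0.932 FPKM in sh control cells of 786-O (-0.48, adjusted p = 0.00135). The beta and delta subunits EIF2B2 (0.04, adjusted p = 0.564) and EIF2B4 (-0.12, adjusted p = 0.115) did not pass in 786-O. Thus 60% of the subunits were called in 786-O, all lower, where 51.0% of all tested genes were called and 26.2% were lower. In 5637 EIF2B3 was the only 1 of the 5 subunits called (20%), where 44.5% of all tested genes were called. There EIF2B1 (0.03, adjusted p = 0.29) and EIF2B5 (-0.09, adjusted p = 0.0741) did not pass.

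The 3 subunits of eIF2 changed little in 786-O. EIF2S1, the alpha subunit that the stress kinases phosphorylate, averaged 24.0 ± 0.417 FPKM in shCBX7 cells and 26.7 ± 0.671 FPKM in sh control cells of 786-O (-0.14, adjusted p = 0.0256). That call was lost without any 1 library except sh control library 1 (adjusted p = 0.0544 to 0.0992). EIF2S2, the beta subunit, averaged 90.3 ± 4.31 FPKM in shCBX7 cells and 83.1 ± 3.65 FPKM in sh control cells (0.12, adjusted p = 0.107), and EIF2S3, the gamma subunit, 54.3 ± 1.82 FPKM in shCBX7 cells and 50.6 ± 2.65 FPKM in sh control cells (0.10, adjusted p = 0.152), neither called. In 5637 EIF2S1 had 26.9, 27.7 and 27.9 FPKM in shCBX7 libraries, against 25.0, 23.6 and 24.6 FPKM in sh control libraries (0.17, adjusted p = 0.00271). EIF2S2 averaged 91.1 ± 3.66 FPKM in shCBX7 cells and 80.8 ± 1.03 FPKM in sh control cells of 5637 (0.17, adjusted p = 0.00418). EIF2S3 averaged 124 ± 1.80 FPKM in shCBX7 cells and 141 ± 3.19 FPKM in sh control cells of 5637 (-0.18, adjusted p = 0.000958). EIF2S3B, an autosomal copy that shares sequence with EIF2S3, could take or give reads. The alpha and beta subunits were thus higher and the gamma subunit lower in 5637 shCBX7 cells. EIF2A, an initiation factor that is not a subunit of eIF2 and can bring initiator tRNA to the ribosome, had 12.8, 12.3 and 12.1 FPKM in shCBX7 libraries, against 17.6, 18.9 and 19.6 FPKM in sh control libraries of 786-O (a log2 change of -0.56 ± 0.05, adjusted p = 0.000127). It was lower in 5637 too, with 35.2, 36.5 and 36.0 FPKM in shCBX7 libraries, against 40.7, 41.2 and 40.8 FPKM in sh control libraries (a log2 change of -0.18 ± 0.02, adjusted p = 0.000553). EIF2D, which acts in reinitiation and recycling, was lower in 786-O (-0.15, adjusted p = 0.0304), a call lost without any 1 library except sh control library 2 (adjusted p = 0.0547 to 0.0959) and after quantile normalization (adjusted p = 0.0581), and not called in 5637 (-0.06, adjusted p = 0.0622).

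The eIF3 complex binds the small subunit and is the largest initiation factor. Of its 14 genes tested in 786-O, 7 were lower and none was higher, and 7 did not pass, where 26.2% of all tested genes were lower and 24.7% higher. EIF3L had 25.1, 23.4 and 22.4 FPKM in shCBX7 libraries, against 36.1, 37.6 and 34.0 FPKM in sh control libraries of 786-O (a log2 change of -0.58 ± 0.06, adjusted p = 0.000163). EIF3E, known as INT6, had 39.4, 42.3 and 37.8 FPKM in shCBX7 libraries, against 55.4, 61.6 and 60.8 FPKM in sh control libraries of 786-O (a log2 change of -0.56 ± 0.06, adjusted p = 0.000232). EIF3H, a subunit with an MPN domain, had 31.4, 31.0 and 30.3 FPKM in shCBX7 libraries, against 42.8, 46.9 and 44.6 FPKM in sh control libraries of 786-O (a log2 change of -0.52 ± 0.05, adjusted p = 0.000102). In each of the 3 genes every shCBX7 library was below every control library. EIF3M (22.7 against 31.0 FPKM; -0.43, adjusted p = 0.000353), EIF3K (41.3 against 55.5 FPKM; -0.42, adjusted p = 0.00167) and EIF3I (144 against 176 FPKM; -0.29, adjusted p = 0.000938) were lower in shCBX7 than in sh control cells. EIF3A, the scaffold, was lower at the margin (-0.26, adjusted p = 0.0391), a call lost without any 1 library except sh control library 1 (adjusted p = 0.0562 to 0.121) and without the filter on low values (adjusted p = 0.104), after quantile normalization (0.062) and without the mean-variance trend (0.0518). EIF3B, EIF3D, EIF3F, EIF3G and EIF3J had log2 changes between -0.12 and 0.06 and were not called in 786-O. About 41.1% of the exon bases of EIF3L are shared with AL022311.1 on the same strand.

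In 5637, 5 of 14 eIF3 genes were lower and 2 higher, 50% called in all, where 44.5% of all tested genes were called, 20.2% lower and 24.4% higher. The lower ones were EIF3A (-0.12, adjusted p = 0.00597), EIF3E (-0.15, adjusted p = 0.00845), EIF3H (-0.10, adjusted p = 0.0196), EIF3L (-0.12, adjusted p = 0.0046) and EIF3M (-0.10, adjusted p = 0.00554), each of which was also called lower in 786-O. These 5 genes encode subunits of the PCI/MPN octamer of eIF3, a grouping made after their values were seen, and the octamer subunits EIF3C, EIF3F and EIF3K were not called in 5637. The EIF3H call in 5637 was lost without shCBX7 library 3, sh control library 1 or sh control library 3 (adjusted p = 0.0501 to 0.0629). EIF3B, an RNA-binding subunit, had 29.5, 30.6 and 30.2 FPKM in shCBX7 libraries, against 25.8, 25.2 and 24.3 FPKM in sh control libraries (a log2 change of 0.25 ± 0.03, adjusted p = 0.000489). EIF3J, a loosely bound subunit, had 27.5, 29.3 and 28.6 FPKM in shCBX7 libraries, against 23.8, 23.5 and 23.7 FPKM in sh control libraries (a log2 change of 0.25 ± 0.03, adjusted p = 0.000414). Both lay clearly apart between the arms in 5637. EIF3C and EIF3CL are near-identical copies on chromosome 16, and how reads were divided between them is not given in the sources used here. EIF3CL had 17.5, 7.10 and 1.23 FPKM in shCBX7 libraries, against 1.12, 16.0 and 3.45 FPKM in sh control libraries of 786-O, a spread within each arm that exceeds any difference between arms. The summed reads of both copies were 1279, 631 and 432 in shCBX7 libraries, against 466, 1243 and 723 in sh control libraries of 786-O, so summing did not remove the spread. Neither copy was called in either line.

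Among factors of scanning, start codon choice and subunit joining, 3 of 8 tested in 786-O were higher and 1 lower, and 4 of 7 tested in 5637 were higher and 2 lower. For comparison, 26.2% of all tested genes were lower and 24.7% higher in 786-O and 20.2% lower and 24.4% higher in 5637. EIF5, which makes eIF2 hydrolyse GTP at the start codon, had 29.1, 28.5 and 27.2 FPKM in shCBX7 libraries, against 22.0, 23.6 and 23.2 FPKM in sh control libraries of 786-O (a log2 change of 0.29 ± 0.05, adjusted p = 0.00211). In 5637 EIF5 had 32.3, 31.6 and 31.7 FPKM in shCBX7 libraries, against 26.3, 25.1 and 26.1 FPKM in sh control libraries (a log2 change of 0.29 ± 0.02, adjusted p = 0.000155). It was higher in both lines without overlap. EIF1B, a paralog of eIF1, averaged 27.7 ± 0.412 FPKM in shCBX7 cells and 20.4 ± 1.08 FPKM in sh control cells of 786-O (0.43, adjusted p = 0.000364) and was not called in 5637 (-0.02, adjusted p = 0.688). EIF1, which guards against wrong start codons, was higher in 786-O (176 against 154 FPKM; 0.19, adjusted p = 0.006) and lower in 5637 (217 against 242 FPKM; -0.16, adjusted p = 0.0102). EIF1AX, which encodes eIF1A, averaged 28.0 ± 0.494 FPKM in shCBX7 cells and 22.4 ± 0.539 FPKM in sh control cells of 5637 (0.31, adjusted p = 0.000173) and was not called in 786-O (-0.03, adjusted p = 0.801). EIF6, which keeps free large subunits from joining, averaged 101 ± 3.59 FPKM in shCBX7 cells and 130.0 ± 10.1 FPKM in sh control cells of 786-O (-0.37, adjusted p = 0.00219). In 5637 EIF6 averaged 48.5 ± 1.57 FPKM in shCBX7 cells and 40.5 ± 2.59 FPKM in sh control cells (0.26, adjusted p = 0.00462), the opposite direction. EIF5B, the factor of subunit joining, was higher in 5637 (0.15, adjusted p = 0.0271), a call lost without shCBX7 library 1, shCBX7 library 2 or sh control library 1 (adjusted p = 0.0565 to 0.0721) and without the filter on low values (adjusted p = 0.0649), after quantile normalization (0.0567) and with the replicate number as a block (0.0706). EIF1AD, a nuclear protein with an eIF1A-like domain, was lower in 5637 (-0.08, adjusted p = 0.017), and this call was lost without shCBX7 library 2, sh control library 1 or sh control library 2 (adjusted p = 0.0524 to 0.0543), with the replicate number as a block (adjusted p = 0.0564) and in the test on recovered reads (0.0551).

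The eIF5A paralogs, which carry hypusine and help ribosomes past difficult peptide bonds, moved apart. EIF5A2 (chr3:170888415-170908693, minus strand) had 5.86, 6.05 and 5.49 FPKM in shCBX7 libraries, against 10.1, 10.9 and 11.1 FPKM in sh control libraries of 786-O (a log2 change of -0.78 ± 0.06, adjusted p = 3.72e-05). In 5637 EIF5A2 had 3.83, 3.73 and 3.59 FPKM in shCBX7 libraries, against 4.59, 4.72 and 5.04 FPKM in sh control libraries (a log2 change of -0.29 ± 0.04, adjusted p = 0.00125). EIF5A, by far the more abundant paralog, had 317, 324 and 349.5 FPKM in shCBX7 libraries, against 314, 276 and 286 FPKM in sh control libraries of 786-O (a log2 change of 0.18 ± 0.06, adjusted p = 0.0467). Its arms stood only just apart in 786-O, and the call was lost without any 1 library except sh control library 1 (adjusted p = 0.0572 to 0.147) and without the filter on low values (adjusted p = 0.13), without the mean-variance trend (0.0701) and with the replicate number as a block (0.0636). In 5637 EIF5A had 106, 102 and 101 FPKM in shCBX7 libraries, against 84.5, 83.8 and 84.6 FPKM in sh control libraries (a log2 change of 0.29 ± 0.02, adjusted p = 0.000142). EIF5A2 was thus lower and EIF5A higher in the shCBX7 cells of both lines. EIF5AL1, a copy-like gene of EIF5A with which it shares sequence, was higher in 5637 (0.20, adjusted p = 0.0264), a call lost without shCBX7 library 2 or 3 or sh control library 1 or 2 (adjusted p = 0.0665 to 0.0801) and without the filter on low values (adjusted p = 0.0689) and with the replicate number as a block (0.0502), and not called in 786-O (0.23, adjusted p = 0.0867).

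Among the methyltransferases, EEF1AKMT3 was higher (3.35 against 2.61 FPKM; 0.27, adjusted p = 0.0067) and EEF1AKMT4 lower (3.92 against 5.64 FPKM; -0.43, adjusted p = 0.00626) in 786-O, in shCBX7 against sh control cells. In 5637 EEF1AKMT1 averaged 2.81 ± 0.291 FPKM in shCBX7 cells and 1.94 ± 0.203 FPKM in sh control cells (0.37, adjusted p = 0.00568), the highest log2 change of any member in that line. EEF2KMT, the methyltransferase of eEF2, averaged 1.69 ± 0.0326 FPKM in shCBX7 cells and 1.27 ± 0.0425 FPKM in sh control cells of 5637 (0.24, adjusted p = 0.00277), and 29.3% of its exon bases are shared with ALG1 on the opposite strand. The members without a test in 786-O were EEF1G, EIF4E1B, EIF4EBP3 and the readthrough genes EEF1AKMT4-ECE2 and EEF1E1-BLOC1S5, which were listed at 0 or near it. In 5637, EEF1AKMT4, EIF2S3B and both readthrough genes had no symbol match, and 4 further members, EEF1G, EIF4E1B and EIF4EBP3 among them, were below the level tested. EIF1AY is counted in the totals, and its values are not given.

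The changes differed between the lines for 39 of the 60 members tested in a limma fit over all 12 libraries with a term for the difference, and 21 did not pass, where 53.3% of all genes in that fit were called. Of the 60, 59 were tested within both lines. The 786-O change lay below the 5637 change for 32 members and above it for 7, where the same test called 29.0% of all 12777 genes below and 24.3% above. CBX7 was left at 61.0% of control in 786-O and at 83.3% in 5637. Whether the differences follow the depth of silencing was not tested. The smallest p-values belonged to EIF4G1 (786-O minus 5637 -0.86 ± 0.05 on the log2 scale, adjusted p = 1.55e-07), EEF1B2 (-0.75 ± 0.06 on the log2 scale, adjusted p = 7.97e-07) and EIF2B3 (-0.96 ± 0.07 on the log2 scale, adjusted p = 8.21e-07). EIF2B1 (-0.52 ± 0.05 on the log2 scale, adjusted p = 1.04e-05), EIF4H (-0.46 ± 0.05 on the log2 scale, adjusted p = 1.10e-05) and EIF4A3 (-0.41 ± 0.05 on the log2 scale, adjusted p = 2.42e-05) came next. All 6 lay lower in 786-O than in 5637. EIF5A differed by -0.11 ± 0.07 on the log2 scale, adjusted p = 0.218 and was not called, so its rise is not shown to differ between the lines.

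Side by side, 11 of the 59 members tested in both lines were lower in each (18.6%), where this held for 649 of 10359 genes tested in both (6.27%). These 11 were EEF1A1, EIF2A, EIF3A, EIF3E, EIF3H, EIF3L, EIF3M, EIF4A2, EIF4B, EIF4H and EIF5A2. They make up 37.9% of the 29 such members lower in 786-O and 64.7% of the 17 lower in 5637. Of all genes tested in both lines, 21.7% of those lower in 786-O and 31.4% of those lower in 5637 were lower in each. Tested members were also lower more often in each line alone (48.4% in 786-O and 28.8% in 5637). Those rates by themselves raise the overlap, and an excess beyond them was not tested. The calls of EIF3A in 786-O and of EEF1A1, EIF3H and EIF4H in 5637 were lost when some single libraries were left out. EIF4E2, EIF4G2, EIF5 and EIF5A were higher in each line (6.78% of members, against 8.41% of all genes). EIF2B3, EIF2S1, EIF4A3, EIF4G1, EIF4G3 and EIF6 were lower in 786-O and higher in 5637 (10.2% of members, against 7.52% of all genes). EIF1 and EIF4EBP2 were higher in 786-O and lower in 5637 (3.39% of members, against 4.70% of all genes). The lines have separate control libraries.

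**Figure D5:**
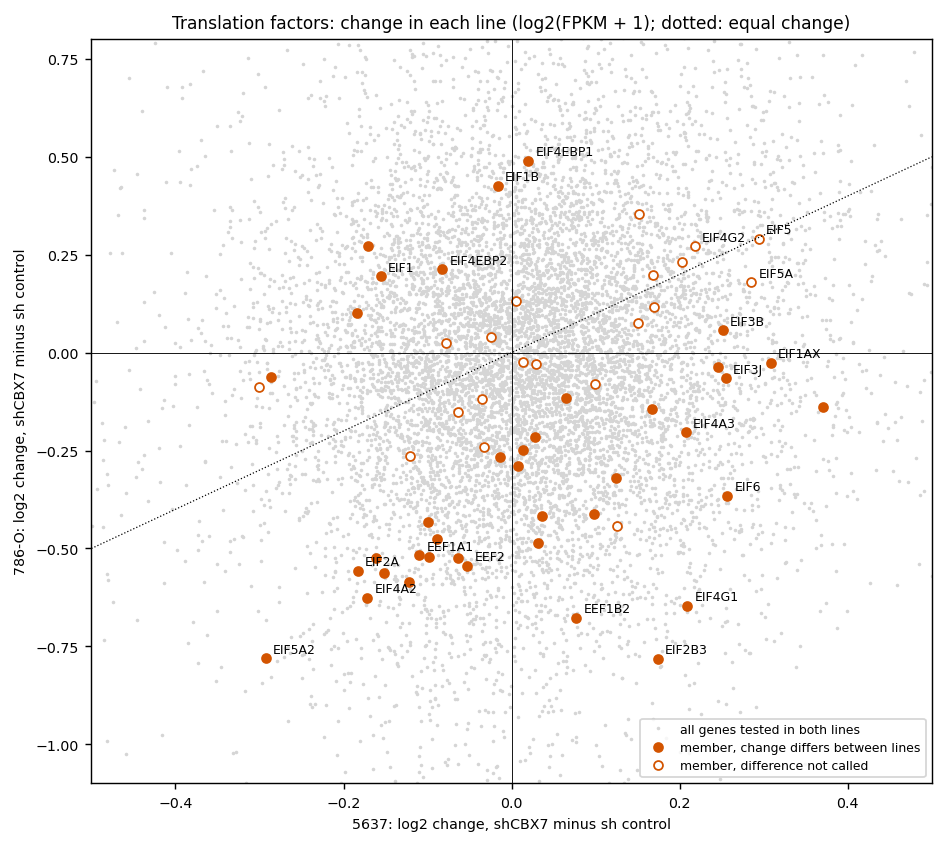
Log2 change (shCBX7 minus sh control) of each member in 786-O (vertical axis) against 5637 (horizontal axis, a narrower range), over all genes tested in both lines (grey; genes outside the axes are not drawn). Filled points are members whose change differed between the lines. EIF4G1 and EIF2B3 lie low and right (-0.65 and 0.21 for EIF4G1), EIF5A2 low and left, and EIF5 on the dotted line of equal change.

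Genes around the factors, taken from lists of pathway members, gave the setting. The lists were drawn up with earlier results of these data known, so their counts beside all tested genes are descriptive. Genes named from each list include up to 4 with the smallest p, so large changes among them were selected for. Of the 9 eIF2 kinases and phosphatase subunits, 3 were higher (33.3%) and none lower in 786-O, where 24.7% of all tested genes were higher and 26.2% lower. PPP1R15A, the stress-induced subunit that directs phosphatase to eIF2 alpha (GADD34), had 61.3, 60.9 and 63.7 FPKM in shCBX7 libraries, against 27.3, 25.1 and 27.9 FPKM in sh control libraries of 786-O (a log2 change of 1.18 ± 0.05, adjusted p = 4.11e-06), and it was not called in 5637 (0.02, adjusted p = 0.661). PPP1CB, a catalytic subunit, was higher in 786-O as well (36.8 against 22.2 FPKM; 0.70, adjusted p = 0.000234) and not called in 5637 (-0.02, adjusted p = 0.663). None of the 4 eIF2 kinases was called in 786-O. Among them EIF2AK2 had the smallest p there (0.20, adjusted p = 0.0873), and it was not called in 5637 (0.03, adjusted p = 0.305). EIF2AK4 had a log2 change of -0.09 in 786-O (adjusted p = 0.23). PPP1R15B, the constitutive partner of the phosphatase, was higher in 786-O (0.19, adjusted p = 0.0404), a call lost without any 1 of 4 libraries (shCBX7 1 and 2, sh control 1 and 3; adjusted p = 0.0885 to 0.129) and without the filter on low values (adjusted p = 0.0818), after rescaling to TPM (0.0792), without the mean-variance trend (0.0559) and with the replicate number as a block (0.0625). In 5637, 2 of the 9 were higher and 2 lower (22.2% each), near the 24.4% higher and 20.2% lower of all tested genes. PPP1R15B had 38.1, 38.6 and 38.2 FPKM in shCBX7 libraries, against 57.1, 57.8 and 56.7 FPKM in sh control libraries (a log2 change of -0.57 ± 0.02, adjusted p = 7.63e-06). PPP1CC was lower there (-0.13, adjusted p = 0.00247) and PPP1CA higher (0.10, adjusted p = 0.0133), neither called in 786-O (0.01, adjusted p = 0.853 and -0.10, adjusted p = 0.278). EIF2AK4, the amino acid sensor GCN2, was higher in 5637 (0.09, adjusted p = 0.0168), a call lost without shCBX7 library 2 or 3 or sh control library 1 (adjusted p = 0.0527 to 0.0565) and after quantile normalization (adjusted p = 0.0529).

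Of 16 regulators of the cap complex, 6 were lower and 3 higher in 786-O, and 3 were lower and 6 higher in 5637, where 26.2% of all tested genes were lower and 24.7% higher in 786-O and 20.2% lower and 24.4% higher in 5637. LARP1, which binds the cap and TOP tract of TOP messages, had 4.15, 4.16 and 4.46 FPKM in shCBX7 libraries, against 14.3, 14.8 and 14.3 FPKM in sh control libraries of 786-O (a log2 change of -1.56 ± 0.05, adjusted p = 1.06e-06). MKNK2, a kinase that phosphorylates eIF4E, had 154, 142 and 147 FPKM in shCBX7 libraries, against 61.1, 54.5 and 55.8 FPKM in sh control libraries of 786-O (a log2 change of 1.35 ± 0.06, adjusted p = 3.36e-06). Both stood further from control than any member in that line. In 5637 LARP1 was not called (0.01, adjusted p = 0.83) and MKNK2 was higher (0.13, adjusted p = 0.00105). The poly(A)-binding proteins PABPC1 (172 against 246 FPKM; -0.51, adjusted p = 9.90e-05) and PABPC4 (13.1 against 24.6 FPKM; -0.86, adjusted p = 9.22e-06) were lower in 786-O shCBX7 than in sh control cells. In 5637 PABPC1 was lower (-0.10, adjusted p = 0.0145), a call lost without the filter on low values (adjusted p = 0.0703) and after quantile normalization (0.0622), and PABPC4 was not called (-0.01, adjusted p = 0.829). MTOR, the kinase itself, was lower in 786-O (2.14 against 3.29 FPKM; -0.45, adjusted p = 0.00134) and higher in 5637 (7.91 against 6.81 FPKM; 0.19, adjusted p = 0.0019). Its partner RPTOR was lower in 786-O (2.07 against 2.60 FPKM; -0.23, adjusted p = 0.0404) and higher in 5637 (6.58 against 5.31 FPKM; 0.27, adjusted p = 0.00263). The 786-O call of RPTOR was lost without any 1 library except shCBX7 library 1 (adjusted p = 0.0545 to 0.115), without the filter on low values (adjusted p = 0.105) and with the replicate number as a block (0.0652). PDCD4, an inhibitor of the eIF4A helicase, was lower in 5637 (-0.19, adjusted p = 0.00648) and not called in 786-O (-0.14, adjusted p = 0.212). Among 8 tested genes of reinitiation, termination and recycling, 4 were lower and 2 higher in 786-O, and 2 lower and 3 higher in 5637, against the same shares of all tested genes. GSPT1, the release factor eRF3a, had 9.42, 9.00 and 8.30 FPKM in shCBX7 libraries, against 26.9, 28.2 and 27.9 FPKM in sh control libraries of 786-O (a log2 change of -1.54 ± 0.06, adjusted p = 1.88e-06), and it was not called in 5637 (0.04, adjusted p = 0.165). ABCE1, which splits ribosomes, was lower in 786-O (-0.52, adjusted p = 0.00032) and higher in 5637 (0.27, adjusted p = 0.000483). HBS1L, a rescue factor, was lower in 786-O (-0.78, adjusted p = 6.64e-05) and in 5637 (-0.13, adjusted p = 0.00414). ABCF1 was lower in 786-O (-0.67, adjusted p = 6.42e-05) and below the level tested in 5637. DENR, a reinitiation factor, was higher in 786-O (20.3 against 15.8 FPKM; 0.34, adjusted p = 0.00386) and in 5637 (37.2 against 28.2 FPKM; 0.39, adjusted p = 0.000235). The release factor ETF1 was higher in both as well, with 0.25, adjusted p = 0.00324 in 786-O and 0.15, adjusted p = 0.00188 in 5637.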

How the data were processed

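RNA-seq libraries were made from 1.3 µg of total RNA with a strand-marking kit (NEBNext Ultra Directional), per the labels' protocols. FPKM were deposited by the authors, each line having its own table, per the file headers. For aligner, counter and strand setting the entry is: not given in the sources used here. The submitters' processing notes name mm10 although the samples are human. All 67 members matched GENCODE release 29 (GRCh38) in position. The 5637 control columns carry no name of a single sample and were used as members of their group, and 0 columns had no group. No libraries held identical values.

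FPKM are not counts, so log2(FPKM + 1) was tested within each line with limma 3.58.1 (lmFit, eBayes with trend, R 4.3.3) for genes averaging 0.5 FPKM or more, with Benjamini-Hochberg adjustment over all genes tested. Differences between lines were the interaction term over 12 libraries. Low values were whole multiples of 1 read (tolerance 0.01) for all 58735 genes of 786-O and for 28077 of 29890 (93.9%) of 5637, with lengths from the other table. They gave the depth and an alternative test (limma voom), which called 31 members lower and 10 higher in 786-O and 17 lower and 19 higher in 5637. An exact permutation test of 3 against 3 libraries cannot go below 0.1 and was not used. Scripts were tested on simulated data.

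Members and lists were chosen with earlier results of these data known, so their shares beside those of all tested genes are descriptive. This holds for the pathway, TOP, mitochondrial and synthetase lists too. Named were the 12 largest rises and falls called per line, the 6 smallest interaction p-values, eIF2 subunits, the eIF4F core, EIF4EBP genes, eIF5A, EEF1A, EEF2 and EEF2K genes, and up to 4 genes with the smallest p per pathway list. Most are given with the value in the other line. Other members are named to account for each group. Promoter windows are RefSeq's (GRCh38.p14). Exon overlap was computed from GENCODE. Alternatives were other scalings, pseudocounts, filters and tests, the replicate block and leaving out each library.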

Additional observations from a re-analysis of the deposited data

Results flagged for a closer look

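The change after CBX7 silencing differed between the lines for 39 members, by a test of the difference itself (limma interaction term, adjusted p under 0.05). Silencing of CBX7 was less deep in 5637, and its part in these differences was not tested. Values are the 786-O log2 change minus the 5637 log2 change. The difference was furthest below 0 for EIF2B3 (-0.96), EIF4G1 (-0.86), EEF1B2 (-0.75), EIF6 (-0.62), EIF2B1 (-0.52), EEF2K (-0.51), EEF1AKMT1 (-0.51), EEF2 (-0.49), EIF5A2 (-0.49), EIF3L (-0.46), EIF4H (-0.46), EIF4A2 (-0.45) and EIF3K (-0.45). It was less far below 0 for EIF4G3 (-0.45), EIF3H (-0.42), EIF4A3 (-0.41), EIF3E (-0.41), EEF1A1 (-0.41), EIF2B5 (-0.39), EIF2A (-0.37), EIF4B (-0.36), EIF1AX (-0.33) and EIF3M (-0.33). Smaller negative differences belonged to EIF3J (-0.32), EIF2S1 (-0.31), EIF3I (-0.30), EEF2KMT (-0.28), EIF4ENIF1 (-0.26), EIF4E3 (-0.25), EIF4E (-0.24), EIF3B (-0.19) and EIF2B4 (-0.18). The 786-O change was the higher one for EIF4EBP1 (0.47), EEF1AKMT3 (0.44), EIF1B (0.44), EIF1 (0.35), EIF4EBP2 (0.30), EIF2S3 (0.29) and EIF4A1 (0.22). The EIF4A1 difference was lost without any 1 of 10 libraries (all 6 of 5637, and shCBX7 1 and 2 and sh control 1 and 2 of 786-O; adjusted p = 0.0517 to 0.0775) and with a pseudocount of 0.1 (adjusted p = 0.161), without the filter on low values (0.0507), after rescaling to TPM (0.121), after quantile normalization (0.0519), with the replicate number as a block (0.0841) and in the test on recovered reads (0.212). That of EEF2KMT was lost without any 1 of 6 (shCBX7 2 of 786-O, shCBX7 1, 2 and 3 and sh control 2 and 3 of 5637; adjusted p = 0.0505 to 0.0745), without the filter on low values (adjusted p = 0.0654) and after median centring (0.0581). That of EIF2B4 was lost without shCBX7 library 1 (or sh control library 1) of 5637 (adjusted p = 0.0517 to 0.0567), after median centring (adjusted p = 0.0621) and after quantile normalization (0.0897). That of EIF4E3 was lost without shCBX7 library 3 of 5637 (adjusted p = 0.0527).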

How the results depend on the processing

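Over another pseudocount, no filter, rescaling to TPM, median centring, quantile normalization, no mean-variance trend, a test on recovered reads and the replicate block, the members called lower in 786-O numbered 26 to 31 and those called higher 8 to 10. In 5637 they numbered 15 to 20 and 16 to 19, and the lines differed for 37 to 40 members. Leaving out 1 library at a time gave 24 to 29 lower and 8 to 9 higher in 786-O, 14 to 18 lower and 16 to 18 higher in 5637, and 36 to 40 differences between lines. No member reversed its direction where it was called. Of the calls, 31 of 39 in 786-O, 29 of 35 in 5637 and 35 of 39 between lines held in every alternative. Of the members not called, EIF1AY left out, 4 of 22 in 786-O, 7 of 24 in 5637 and 7 of 20 between lines gained a call in some alternative.

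With the replicate number as a block, 30 members were lower and 10 higher in 786-O, 15 lower and 17 higher in 5637, and 40 differed between lines. Deviations of same-numbered libraries correlated at 0.0833, 0.0765 and 0.057 in 786-O and at 0.0234, -0.0314 and -0.00746 in 5637, so the numbers were not taken to pair the samples. In 786-O every shCBX7 library correlated best with the control of its own number, which is a hint from the data and not from the design. Without the filter, 22.0% of all tested genes in 786-O and 23.6% in 5637 were called, against 51.0% and 44.5% with it, over more genes tested. For EEF1G and EIF4EBP3, listed at a few reads or at 0, levels below detection at this depth and reads lost to shared exons cannot be told apart, while EIF4E1B shares 0% of its exon bases and was listed at no more than 0.0451 FPKM.

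Some log2 changes moved by more than 1.5 times without losing their direction. With a pseudocount of 0.1 they were -0.66 for CBX7 and -0.61 for EIF4E3 in 786-O and -0.46 for EIF4A1, 0.39 for EEF2KMT and -0.55 for DHPS in 5637. In the test on recovered reads they were -0.62 for EEF2K and -0.58 for MRRF in 786-O and 0.31 for EIF5AL1 in 5637. After quantile normalization the difference between lines was -0.32 for EIF5A2.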

Other observations

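Translation factors of mitochondria, which serve the organelle's own ribosomes, went with the cytosolic ones in 786-O. Of 9 tested, 6 were lower and none higher in shCBX7 cells of 786-O (median log2 change -0.37), where 26.2% of all tested genes were called lower. TUFM, the mitochondrial counterpart of eEF1A, had 107, 102 and 106 FPKM in shCBX7 libraries, against 153, 135 and 142 FPKM in sh control libraries (-0.44, adjusted p = 0.000425; limma). GFM2, which recycles ribosomes, averaged 2.22 ± 0.237 FPKM in shCBX7 cells and 4.04 ± 0.221 FPKM in sh control cells (-0.65, adjusted p = 0.000281). GFM1 (-0.39, adjusted p = 0.000486) and MRRF (-0.38, adjusted p = 0.00168) were lower as well. MRRF was not called in 5637 (-0.03, adjusted p = 0.419). In 5637, 4 of 8 were higher and none lower (median 0.05), where 24.4% of all tested genes were called higher. MTIF2, the initiation factor of mitochondria, had 11.7, 12.3 and 12.4 FPKM in shCBX7 libraries, against 9.31, 8.78 and 8.85 FPKM in sh control libraries of 5637 (0.40, adjusted p = 0.000196). In 786-O it was lower (-0.20, adjusted p = 0.0302), a call lost without any 1 library except sh control library 1 (adjusted p = 0.0583 to 0.108), without the filter on low values (adjusted p = 0.0614), after quantile normalization (0.0587) and with the replicate number as a block (0.0502). GFM2 was higher in 5637 too (0.13, adjusted p = 0.00964). The 5637 calls of TUFM (0.06, adjusted p = 0.046) and GFM1 (0.10, adjusted p = 0.0211) were lost when single libraries were left out. For TUFM this held for every library except sh control library 2 (adjusted p = 0.072 to 0.146), and for GFM1 for shCBX7 library 2, shCBX7 library 3 and sh control library 3 (adjusted p = 0.0527 to 0.0709). The TUFM call was also lost without the filter on low values (adjusted p = 0.0545), after median centring (0.0954), after quantile normalization (0.224), without the mean-variance trend (0.0944), with the replicate number as a block (0.0951) and in the test on recovered reads (0.0516).

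Of 22 cytosolic tRNA synthetases and scaffold proteins, 12 were lower and 3 higher in 786-O, where 26.2% of all tested genes were lower and 24.7% higher. RARS, the arginyl-tRNA synthetase, had 20.9, 21.0 and 19.2 FPKM in shCBX7 libraries, against 40.4, 45.5 and 44.9 FPKM in sh control libraries (-1.06, adjusted p = 1.33e-05; limma). QARS, the glutaminyl-tRNA synthetase, averaged 32.8 ± 1.65 FPKM in shCBX7 cells and 54.5 ± 1.21 FPKM in sh control cells (-0.71, adjusted p = 2.84e-05). SARS (80.6 against 59.2 FPKM; 0.44, adjusted p = 6.79e-05) and WARS (48.4 against 34.5 FPKM; 0.48, adjusted p = 9.59e-05), the synthetases for serine and tryptophan, were among the higher ones in shCBX7 against sh control cells. In 5637, 4 of the 22 matched by symbol, FARSA, FARSB, AIMP1 and AIMP2, and all 4 were higher, from 0.19 for AIMP1 to 0.46 for AIMP2, where 24.4% of all tested genes were higher. In 786-O FARSA (-0.25, adjusted p = 0.00741) and FARSB (-0.37, adjusted p = 0.000614) were lower, AIMP1 was not called (-0.03, adjusted p = 0.633), and AIMP2 was lower (-0.33, adjusted p = 0.0236), a call lost without shCBX7 library 2 or 3 (adjusted p = 0.0619 to 0.0751) and without the filter on low values (adjusted p = 0.0727). Of the genes that act in making hypusine on eIF5A, AZIN1, an antizyme inhibitor that keeps polyamine synthesis running, averaged 24.4 ± 0.643 FPKM in shCBX7 cells and 16.4 ± 1.60 FPKM in sh control cells of 786-O (0.55, adjusted p = 0.000569) and 74.8 ± 2.06 FPKM in shCBX7 cells and 64.7 ± 0.525 FPKM in sh control cells of 5637 (0.21, adjusted p = 0.00067). DHPS, which carries out the first step, was lower in 5637 (1.12 against 1.69 FPKM; -0.34, adjusted p = 0.00909) and not called in 786-O (0.10, adjusted p = 0.502), and DOHH was not called in 786-O (-0.02, adjusted p = 0.791).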
